A study of Caenorhabditis elegans with 4 samples.

Results

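The UDP-glucuronosyltransferase family of Caenorhabditis elegans carries the gene name ugt with a number, and its members were taken by that name pattern from the full table of the comparison. They numbered 64, among 18468 genes and 18638 features in all, the others being repeat elements. Polyadenylated RNA of whole gravid adults was sequenced in 4 libraries, 2 from rde-3 mutants (strain YY1449) and 2 from N2, the laboratory wild type. RDE-3 is an enzyme that puts poly(UG) tails on RNA, with roles in RNA interference and in keeping transposons silent. The sources used here name no allele, transgene or treatment for YY1449, and each genotype is 1 strain, so an effect of rde-3 and any other difference between YY1449 and N2 cannot be told apart. The series' design text calls the libraries of a genotype biological replicates. The comparison's name puts the mutant before the wild type, and positive fold changes were therefore read as higher in the mutants.

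UDP-glucuronosyltransferases move a sugar from a UDP-sugar onto small lipophilic molecules, which makes them more soluble and easier to export. They sit in the membrane of the endoplasmic reticulum and form the conjugation step of xenobiotic metabolism, after oxidation by cytochrome P450 enzymes and before export by ABC transporters. In C. elegans many of them are expressed in the intestine, glucose rather than glucuronate is often the sugar transferred, and for most single members no substrate is known.

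The authors' deposited table gives 1 mean per gene over the 4 libraries, yet the reads of each library could be worked back from it, because each mean is built from whole reads divided by the size factor of each library. The 4 size factors were inferred from the lowest means, which are whole multiples of 4 steps. This gave reads per library for all 64 ugt genes, and for 18223 of the 18638 features. The recovered reads summed to 8682732 and 5449406 in mutant libraries A and B, and to 10262612 and 7353004 in wild-type libraries A and B, without the most abundant genes, so the full depth is unknown. Levels below are these reads divided by the size factor of their library, and are called normalized counts. The mutated gene itself, listed as mut-2, had 846 and 745 normalized counts in mutants, against 726 and 805 in wild type, so its RNA gives no check of the labels. Of the markers of adult tissues, 2 of 9 intestinal genes were higher and 1 was lower. The summed normalized counts of the 5 intestinal markers with recovered reads were 4738 and 4708 in mutants, against 5067 and 5139 in wild type. This sum leaves out act-5, asp-1, cpr-6 and vha-6, whose reads were not recovered. Over all 9 the median log2 was 0.12, with 6 positive and 3 negative values. All 5 muscle markers and 5 of 6 sperm markers were lower in mutants and 7 of 8 oocyte markers were higher. The summed levels of the sperm markers were 111 and 100.4 in mutants, against 750.2 and 593 in wild type, and those of 4 muscle markers were 7103 and 6638 against 20582 and 21778. Of the other markers, 1 of 6 yolk genes was higher and 2 were lower, 1 of 6 epidermal genes was higher and 1 lower, and 0 of 5 neuronal, 0 of 3 excretory and 0 of 5 listed embryonic genes were called. None of the listed markers had a mean of 0. In RNA of whole animals, fewer cells of a type and less RNA per cell cannot be told apart, and the part of these shifts in the ugt values was not tested.

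A minority of the ugt genes changed, and they did so in both directions. By the adjusted p of the authors' deposited table at 0.05, 6 of the 64 were higher in the mutants and 9 were lower, which is 9.38% and 14.1% of the family. Over all features the same rule called 9.42% higher and 8.04% lower. The family's median log2 fold change was -0.02, as was the median of all features, and 30 members had positive and 34 negative values. The calls followed expression level. None of the 14 members with a mean normalized count under 10 was called, 1 of 23 with a mean of 10 to 100 was, and 13 of 25 with a mean of 100 to 1000 were. Among the 27 members with a mean of at least 100, 6 were higher and 8 lower, that is 22.2% and 29.6%, against 19.1% and 14.9% of all features at that level. These shares describe the family and were not tested against other genes.

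**Figure D1:**
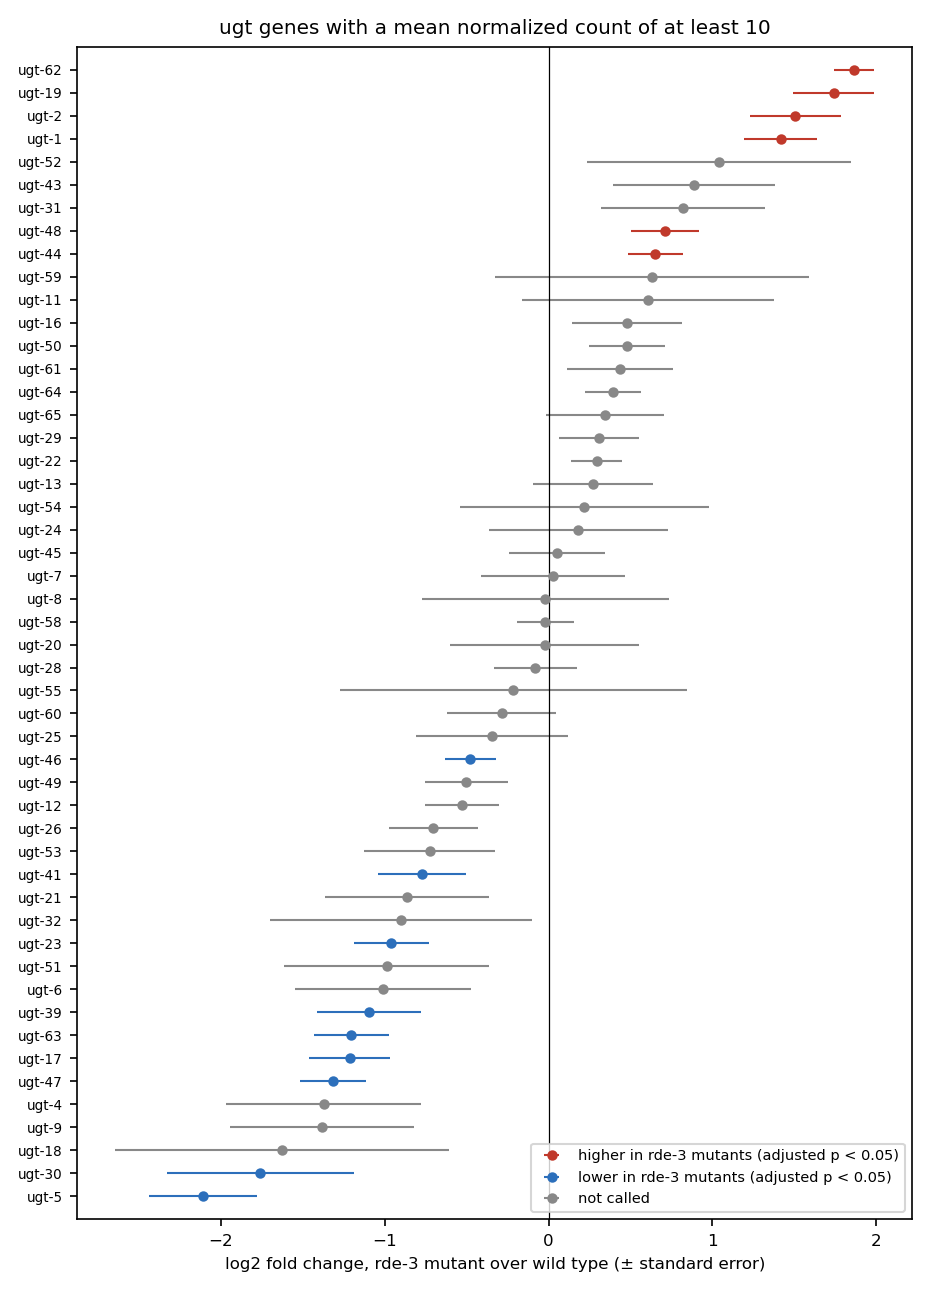
The 50 ugt genes with a mean normalized count of at least 10, ordered by log2 fold change of rde-3 mutants over wild type (horizontal axis), with bars of 1 standard error from the authors' deposited table. The 6 genes called higher lie between 0.65 and 1.86 and the 9 called lower between -2.11 and -0.48, while several uncalled genes with wide bars lie as far from 0.

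The genes called higher were ugt-62, ugt-19, ugt-2, ugt-1, ugt-48 and ugt-44. ugt-62 (chromosome III, 4537281 to 4540623, minus strand, build WBcel235) was the most abundant member and, among the called genes, the one with the largest rise. Its normalized counts were 8017 and 9171 in the mutant libraries, against 2435 and 2286 in the wild-type libraries. Libraries of the same genotype differed little, and the lower mutant library lay far above the higher wild-type library. The authors' deposited table put the change at log2 1.86 ± 0.12, a 3.64-fold rise (SE; adjusted p = 3.1e-49). Divided by exon length, its mean level of 3239 normalized counts per kb stood 91.1 times above the median ugt gene, at 35.6 per kb, and ugt-22 came next with 827 per kb.

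ugt-19 (chromosome IV, 6076686 to 6079952) had normalized counts of 326 and 375 in mutants, against 112 and 96.6 in wild type. Both mutant libraries were above both wild-type libraries, and the authors' deposited table listed log2 1.74 ± 0.25 (adjusted p = 1.2e-10), a 3.34-fold rise. The neighbours ugt-1 and ugt-2 rose together. ugt-1 (chromosome V, 10395663 to 10397820) had 413 and 472 normalized counts in mutants, against 181 and 148 in wild type. ugt-2 (chromosome V, 10398801 to 10401307) had 273 and 327 in mutants, against 125 and 84.1 in wild type. Neither gene's groups overlapped. In the authors' deposited table ugt-1 changed by log2 1.42 ± 0.22 (adjusted p = 9.2e-09) and ugt-2 by log2 1.51 ± 0.28 (adjusted p = 1.4e-06).

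The other 2 rises were smaller than 2-fold. ugt-44 (chromosome IV, 10469741 to 10471899) had 948 and 1211 normalized counts in mutants, against 694 and 677 in wild type. ugt-48 (chromosome V, 5545669 to 5548062) had 367 and 419 in mutants, against 234.8 and 245 in wild type. Again no mutant library fell among the wild-type ones. The authors' deposited table gave log2 0.65 ± 0.17 for ugt-44 (adjusted p = 0.00116) and log2 0.71 ± 0.21 for ugt-48 (adjusted p = 0.00659). In a limma voom fit of the recovered reads, added after seeing the data, the call of ugt-48 was lost without wild-type library A (log2 0.67, adjusted p = 0.0583).

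The genes called lower were ugt-5, ugt-30, ugt-47, ugt-17, ugt-63, ugt-39, ugt-23, ugt-41 and ugt-46. The largest fall was that of ugt-5 (chromosome V, 12790676 to 12792965), with 43.6 and 52.3 normalized counts in mutants, against 218 and 192 in wild type. The higher mutant library stood well under the lower wild-type library, and the change in the authors' deposited table was log2 -2.11 ± 0.33, a 4.31-fold fall (adjusted p = 5.6e-09). ugt-30 (chromosome V, 15121724 to 15125262) was the least abundant gene called, with 17.0 and 15.6 normalized counts in mutants, against 60.6 and 49.8 in wild type. Its groups did not overlap either, and the authors' deposited table listed log2 -1.76 ± 0.57 (adjusted p = 0.0158).

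ugt-47 and ugt-17 are neighbours on chromosome V and fell by like amounts. ugt-47 (10096305 to 10098597) had 215 and 249 normalized counts in mutants, against 613 and 537 in wild type. ugt-17 (10102592 to 10104964) had 134 and 124 in mutants, against 315 and 286 in wild type. The mutant libraries of each gene lay below its wild-type libraries. In the authors' deposited table the changes were log2 -1.32 ± 0.20 for ugt-47 (adjusted p = 3.0e-09) and log2 -1.21 ± 0.25 for ugt-17 (adjusted p = 2.2e-05). ugt-63 (chromosome V, 5108180 to 5110772) had 189 and 158 normalized counts in mutants, against 432 and 371 in wild type, with no overlap. Its change in the authors' deposited table was log2 -1.20 ± 0.23 (adjusted p = 3.5e-06).

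ugt-39 and ugt-41 also lie near each other on chromosome V. ugt-39 (7157142 to 7159235) had 75.8 and 77.8 normalized counts in mutants, against 177 and 151 in wild type, and changed by log2 -1.10 ± 0.32 in the authors' deposited table (adjusted p = 0.00521). ugt-41 (7161068 to 7163595) had 165 and 149.9 in mutants, against 316 and 220.1 in wild type, and changed by log2 -0.77 ± 0.27 in the authors' deposited table (adjusted p = 0.0259). Both genes were lower in every mutant library, but the wild-type libraries of ugt-41 differed by 1.44-fold. Without wild-type library A its call was lost in the limma voom fit, at log2 -0.48 (adjusted p = 0.277).

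The remaining falls were the 2 on chromosome X. ugt-23 (9922862 to 9925173) had 170.5 and 174 normalized counts in mutants, against 339.9 and 329 in wild type. Libraries of 1 genotype were nearly equal, and the authors' deposited table gave log2 -0.96 ± 0.23 (adjusted p = 0.00038). ugt-46 (525928 to 530289) had 691 and 714 in mutants, against 1037 and 917 in wild type, the smallest change among the called genes. The authors' deposited table listed it at log2 -0.48 ± 0.16 (adjusted p = 0.0165). Its call was also lost in the limma voom fit without wild-type library A (log2 -0.38, adjusted p = 0.224).

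For all 15 called genes the mutant and wild-type libraries did not overlap. Such separation largely follows from the calls, made on the same 4 libraries, and adds no support to them. Over the 50 members with a mean of at least 10, the groups did not overlap for 34, with mutants above for 14 and below for 20. Among 12021 features at that level, 34.2% lay above and 34.5% below, 68.7% in all, so non-overlap was about as common in the family as over all features. Within a genotype the higher library of a called gene exceeded the lower one by 1.02- to 1.28-fold in mutants and by 1.02- to 1.48-fold in wild type. The calls of the authors' deposited table rest on a normal distribution of the Wald statistic. With a t distribution of 2 degrees of freedom in its place none of the 15 passed (smallest adjusted p = 0.682). No feature of any kind passed in that setting, so it shows nothing particular to the ugt genes. At an unadjusted p under 0.05 of the t distribution there were 4 higher and 4 lower members. No share over all features is given for that count, so it is a description only. The limma voom fit of all 4 libraries kept all 15 and called 8 higher and 17 lower, against 18.5% and 18.7% of its 12021 features.

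**Figure D2:**
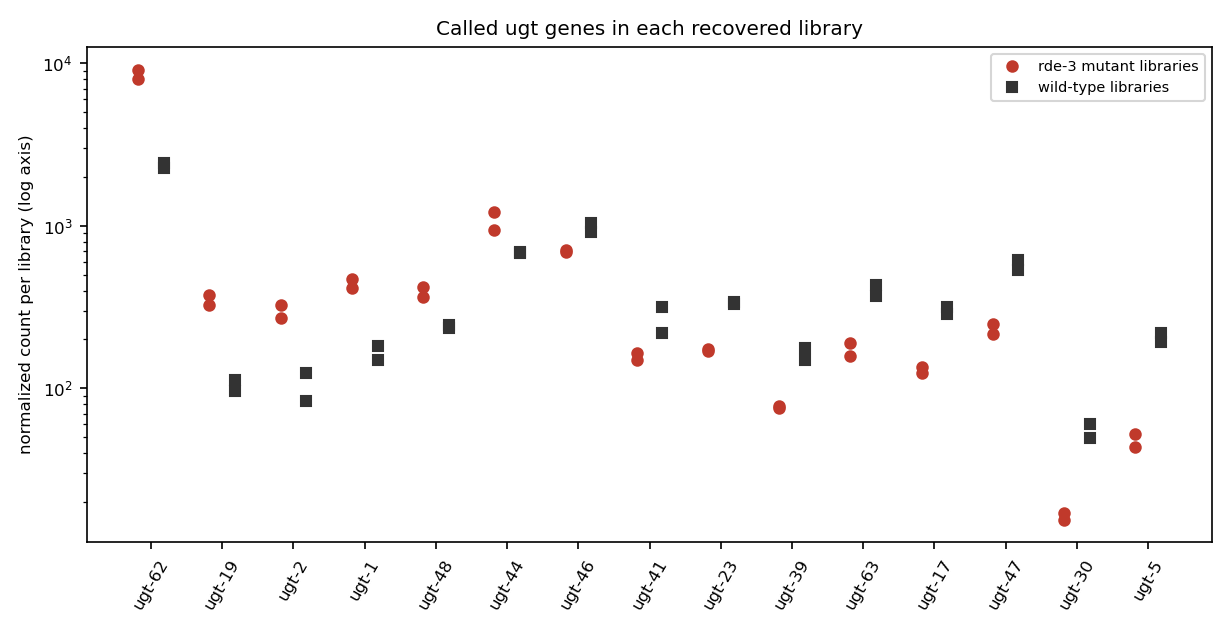
Normalized counts (vertical log axis) of the 15 called ugt genes in the 2 rde-3 mutant libraries (red circles, left of each pair) and the 2 wild-type libraries (black squares), with genes in the order of their log2 fold change. No circle lies among the squares of its gene, and ugt-62, at 8017 and 9171 in mutants, stands above every other gene.

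Most of the family did not pass the test, including several of its abundant members. ugt-22 (chromosome IV, 13639260 to 13644567), whose variation has been linked to albendazole efficacy in C. elegans, had 2295 and 1745 normalized counts in mutants, against 1719 and 1581 in wild type. The mutant libraries were the higher ones, but they differed by 1.31-fold between themselves. Its log2 of 0.29 ± 0.15 in the authors' deposited table (adjusted p = 0.212) has a 95% interval from -0.01 to 0.59. ugt-58 was close to even, with 585 and 724 in mutants, against 653 and 672 in wild type, and log2 -0.02 ± 0.17 (interval -0.36 to 0.32) in the authors' deposited table. ugt-64 had 818 and 751 in mutants, against 545 and 653 in wild type, and the authors' deposited table listed log2 0.39 ± 0.17 (adjusted p = 0.0978). ugt-29 had log2 0.31 ± 0.24, ugt-12 log2 -0.53 ± 0.22 and ugt-49 log2 -0.50 ± 0.25 in the authors' deposited table, with adjusted p of 0.517, 0.0897 and 0.181. The limma voom fit called 3 of these 6, ugt-64 (adjusted p = 0.0279), ugt-12 (adjusted p = 0.0142) and ugt-49 (adjusted p = 0.0264).

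Some weakly expressed members had large log2 values with wide errors. ugt-18 had 4.73 and 5.66 normalized counts in mutants, against 16.2 and 15.6 in wild type. ugt-9 had 21.8 and 19.8 in mutants, against 65.6 and 42.6 in wild type. ugt-4 had 13.3 and 24.04 in mutants, against 43.0 and 51.9 in wild type. These 3 were lower in both mutant libraries than in either wild-type library, and the authors' deposited table listed them at log2 -1.62 ± 1.02, -1.38 ± 0.56 and -1.37 ± 0.60 (adjusted p = 0.345, 0.0712 and 0.102). ugt-52 went the other way, with 22.7 and 19.8 in mutants, against 11.3 and 9.34 in wild type, and log2 1.04 ± 0.81 in the authors' deposited table (adjusted p = 0.503). Of these 4 the limma voom fit called ugt-18, ugt-9 and ugt-4, with adjusted p of 0.0392, 0.00738 and 0.00763. Across the 49 uncalled members 7 had an unadjusted p under 0.05 in the authors' deposited table, 2 of them higher and 5 lower. No share of all uncalled features under that p is given, so this count shows nothing particular to the family. The 14 members with a mean under 10 had standard errors of 1.28 to 3.66 on the log2 scale, so changes of several-fold were not detectable for them at this depth. ugt-34, for example, had 0 and 4.24 normalized counts in mutants, from 3 reads, against 0 and 0 in wild type.

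The ugt genes lie in tandem groups, and in 2 groups made of a single pair both genes were called in the same direction. Where members lay within 20 kb of each other they were counted as 1 cluster. This gave 10 clusters that hold 37 of the 67 ugt genes of the Ensembl release 115 annotation. Of the 67, ugt-35, ugt-66 and ugt-67 were not listed under those names in the authors' deposited table and so were not analysed here. Among 35 listed members in clusters 4 were higher and 5 lower, and the 29 members outside clusters held 2 higher and 4 lower ones. Over all features 9.42% were higher and 8.04% lower, and these counts were not tested. ugt-1 and ugt-2, both higher, span 5.64 kb on the plus strand of chromosome V. ugt-47 and ugt-17, both lower, span 8.66 kb on the minus strand of the same chromosome. Within a cluster of 6 genes on that chromosome, the adjacent ugt-39 and ugt-41 were also both lower, with 1832 bases between them.

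In other clusters some members passed the test and some did not, and differences between neighbours were not tested. On chromosome IV, ugt-20 lies beside ugt-19 on the same strand and had 30.3 and 31.1 normalized counts in mutants, against 33.1 and 29.1 in wild type. The groups of ugt-20 overlapped, and its log2 was -0.02 ± 0.58 in the authors' deposited table (95% interval -1.15 to 1.11), beside 1.74 ± 0.25 for ugt-19. ugt-43, next to ugt-44, had 52.1 and 100.4 in mutants, against 52.9 and 28.0 in wild type, again with overlap, and a positive log2 of 0.89 ± 0.49 in the authors' deposited table (adjusted p = 0.255), beside 0.65 ± 0.17 for ugt-44. The cluster of 6 genes around ugt-39 and ugt-41 spans 29.8 kb. Its other members ugt-36, ugt-37, ugt-38 and ugt-40 had means of 2.88 to 7.53 and log2 values of -0.68 to 0.23, each with an SE over 1, in the authors' deposited table. The 7 genes of the ugt-5 cluster span 39.4 kb, and 5 had negative values. ugt-6, beside ugt-4, had 25.6 and 24.04 normalized counts in mutants, against 49.4 and 50.9 in wild type. Its groups were apart, but the log2 of -1.01 ± 0.54 in the authors' deposited table was not called (adjusted p = 0.218). The limma voom fit did call ugt-6 (log2 -0.98, adjusted p = 0.0312). ugt-3 had a mean of 3.86 and log2 -1.51 ± 1.79 in the authors' deposited table.

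**Figure D3:**
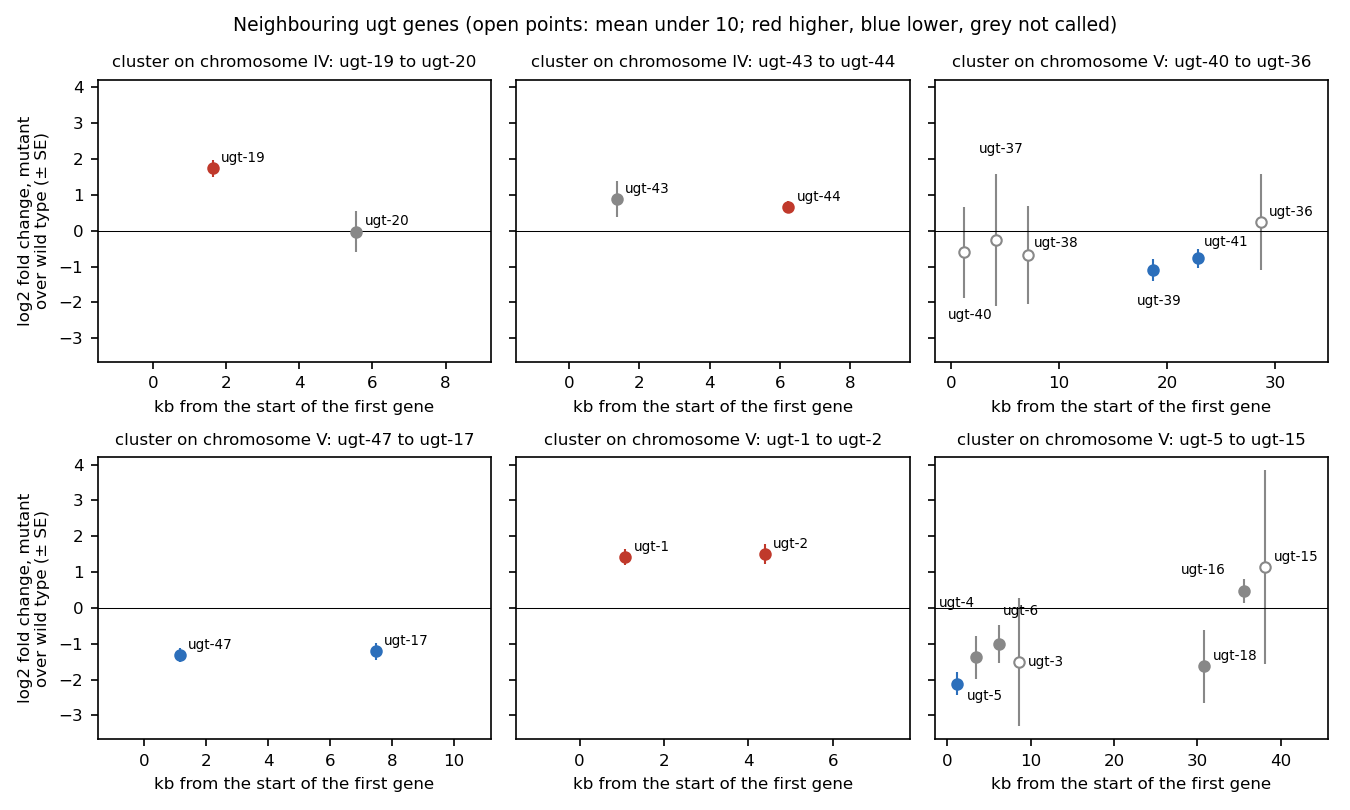
Log2 fold change of rde-3 mutants over wild type (vertical axis, bars 1 standard error, from the authors' deposited table) for the 6 clusters with at least 1 called ugt gene, by distance in kb from the start of the first gene. Both genes of the ugt-1 pair are above 0 at 1.42 and 1.51 and both of the ugt-47 pair below it at -1.32 and -1.21, whereas ugt-20 is at -0.02 beside ugt-19 at 1.74.

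Genes that flank the called members were called less often than features of like level, a difference that was not tested. On each side the nearest listed protein-coding gene outside the family was taken, among those without overlap whose mean reached 10. This gave 24 different genes. Of these 4 were called, or 16.7%, against 25.9% of all features whose mean reached 10. Over features of any level the share was 17.5%. Of the 4 called, 1 went the same way as its ugt neighbour. That 1 was cdh-4, a cadherin gene next to ugt-62, at log2 0.88 ± 0.14 in the authors' deposited table. kcc-2, a potassium-chloride cotransporter gene beside ugt-19, was lower at log2 -0.62 ± 0.18 in the authors' deposited table. By chromosome, 3 members were higher and 7 lower among the 40 on chromosome V, where 9.04% of all matched genes were higher and 7.67% lower. Chromosome IV had 2 higher among 12 (9.13% of its genes were higher), chromosome III 1 higher among 2 (12.7%) and chromosome X 2 lower among 4 (6.9% of its genes were lower), and none was called among the 5 on chromosome I and the 1 on II. Annotations of 17 members overlap another gene, and the kit marks no strand, so reads in shared bases could not be assigned by strand. Of the called members, ugt-48 shares 121 bases with cft-1, which had log2 -0.25 ± 0.63 in the authors' deposited table, ugt-47 shares 98 bases with srd-49, whose mean was 0.882, and ugt-19 contains piRNA loci of 21 bases each. The sources used here do not say how reads that match several ugt genes were counted.

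The summed output of the family was higher in the mutants, and the difference lay in ugt-62. The 64 genes summed to 18313 and 20102 normalized counts in mutants, against 13552 and 12330 in wild type, a ratio of 1.48. Without ugt-62 the sums were 10296 and 10930 in mutants, against 11117 and 10044 in wild type, with overlapping groups and a ratio of 1.00. ugt-62 made up 43.8% and 45.6% of the family's normalized counts in mutants, against 17.97% and 18.5% in wild type. The other 5 genes called higher summed to 2327 and 2803 in mutants, against 1347 and 1251 in wild type. The 9 genes called lower summed to 1702 and 1715 in mutants, against 3509 and 3051 in wild type, a ratio of 0.521. The sums of called genes follow from their being called and carry no test. For the whole family, an exact permutation test of 2 libraries against 2 cannot go below p = 0.333 (two-sided).

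**Figure D4:**
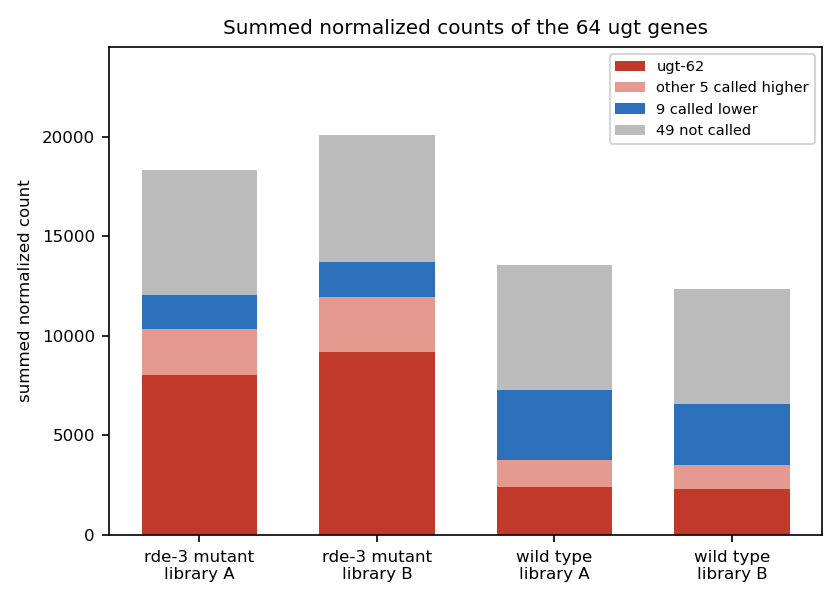
Summed normalized counts of the 64 ugt genes in each library (bars from 0), divided into ugt-62, the other 5 genes called higher, the 9 called lower and the 49 not called. The mutant bars reach 18313 and 20102 and the wild-type bars 13552 and 12330, and the segment of ugt-62 holds 43.8% and 45.6% of the mutant bars.

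For some uncalled members with means of 10 to 100 the 2 mutant libraries differed from each other by at least 2-fold. Mutant library B had the fewest recovered reads, 5449406, and a part of depth in these differences was not tested. Mutant library B exceeded mutant library A by at least 2-fold for 6 of the 50 members with a mean of at least 10, that is 12%, against 4.73% of all features at that level. The reverse occurred for 0 members and for 1.93% of features. These 6, named here after their values were seen, were ugt-8, ugt-11, ugt-25, ugt-32, ugt-54 and ugt-55, all with means of 10 to 100. Within that range they were 26.1% of 23 members, against 10.8% of features, and the reverse occurred for 0 members and 4.71% of features. ugt-8 had 7.58 and 58.0 normalized counts in mutants, against 40.9 and 23.9 in wild type. ugt-11 had 10.4 and 46.7 in mutants, against 16.2 and 20.8 in wild type. In both genes the wild-type libraries fell between the 2 mutant libraries. Between the wild-type libraries 0 of these 50 members differed 2-fold, whereas library A was that much higher for 2.37% of features and library B for 0.624%.

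Genes that make or use UDP-sugars were called higher at about the rate of features of like level. Of 25 such genes 23 were listed, and 4 of these, or 17.4%, were higher and none lower. Over all features 9.42% were higher, and 19.1% of those with a mean of at least 100, a level that 19 of the 23 reached. The shares lower were 8.04% and 14.9%. The list's median log2 was 0.19, beside -0.02 over all features. Those called act in making UDP-glucose or proteoglycan chains. sqv-5, the chondroitin synthase, had 6682 and 5821 normalized counts in mutants, against 3296 and 3695 in wild type. The authors' deposited table listed sqv-5 at log2 0.84 ± 0.13 (adjusted p = 1.9e-09). sqv-6, the xylosyltransferase that starts these chains, was at log2 0.59 ± 0.15, mig-22, the chondroitin polymerizing factor, at 0.41 ± 0.15, and K08E3.5, which makes UDP-glucose, at 0.40 ± 0.12 in the authors' deposited table. The genes closest to UDP-glucuronate supply did not pass the test. sqv-4, the UDP-glucose dehydrogenase that makes UDP-glucuronate, had 3335 and 3111 normalized counts in mutants, against 2565 and 3073 in wild type. The authors' deposited table listed it at log2 0.19 ± 0.13 (adjusted p = 0.412), and sqv-7, the Golgi transporter of UDP-glucuronate, at 0.08 ± 0.13 (adjusted p = 0.837).

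Among 30 regulators of xenobiotic and stress genes 6 were higher and 1 was lower. The 20% higher lies beside 9.42% of all features and 19.1% of those with a mean of at least 100, a level that 28 of the 30 reached. The 3.33% lower lies beside 8.04% and 14.9%. skn-1, the Nrf-type factor that activates conjugation enzymes in C. elegans, had 7015 and 5736 normalized counts in mutants, against 3685 and 4094 in wild type. The authors' deposited table gave skn-1 log2 0.71 ± 0.13 (adjusted p = 2.5e-06) and wdr-23, which represses SKN-1, log2 0.48 ± 0.13. The others higher were pqm-1 (log2 0.62 ± 0.20), hsf-1 (0.45 ± 0.14), atfs-1 (0.42 ± 0.14) and mdt-15 (0.41 ± 0.13) in the authors' deposited table. The gene called lower was nhr-114, a nuclear hormone receptor, with 1498 and 1441 normalized counts in mutants, against 2990 and 2992 in wild type. The intestinal factor elt-2 was listed at log2 0.12 ± 0.25 in the authors' deposited table.

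Other detoxification families are set here beside the 9.42% of all features that were higher and the 8.04% that were lower. Of 69 cytochrome P450 genes, 16 were higher and 3 lower in the authors' deposited table, or 23.2% and 4.35%, with a median log2 of 0.40. Of 40 glutathione S-transferase genes 3 were higher (7.5%) and 0 lower, and of 30 short-chain dehydrogenase genes 3 were higher (10%) and 1 lower (3.33%). Of the ABC exporters, 4 of 15 P-glycoprotein and 4 of 8 multidrug resistance protein genes were higher and 0 lower. Set beside the 6 higher and 9 lower ugt genes, these counts are a description, and the difference between families was not tested.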

How the data were processed

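The authors deposited their comparison of rde-3 mutant and wild-type adults as 2 tables, and the full one was used. Per the labels, mRNA was purified on oligo(dT) beads and libraries were made with Nextera XT. Tools listed in the submitters' processing notes are STAR 2.7.0a, SAMtools 1.3.1, Trim Galore 0.4.4 and cutadapt 1.14, with builds ce11 and WBcel235. The sources used here do not name the counting tool or the statistical model. The deposited signal column is the mean over libraries of counts divided by size factors, per the file headers and values. The deposited log2 column is the fold change and the other deposited column its standard error. The score column deposited beside them is a Wald statistic, which equalled their ratio within 1.1e-13. The deposited p-value column has a Benjamini-Hochberg adjusted p-value beside it, over all 18638 features.

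Size factors were inferred as the 4 steps whose whole multiples make up the lowest deposited means. Reads per library were recovered with Python 3.11.15 (numpy 2.4.6, scipy 1.17.1) as the whole numbers whose scaled sum gives the deposited mean within a relative 1.2e-14 and whose fitted fold change gives the deposited log2 within 0.0001. Of 18229 features with a mean up to 6000, 18223 were recovered, 16017 of them in this way and 2206 by the mean alone. For ugt-34 the mean alone fixed the reads. The method was checked on simulated data. Libraries are named A and B because nothing ties them to replicate numbers. Limma voom (limma 3.58.1, R 4.3.3) was run on 12021 recovered features with a mean of at least 10, and with each library left out in turn, both chosen after seeing the data. Intervals are 95% normal intervals from the deposited standard errors. Positions and exon lengths are from Ensembl release 115 (WBcel235), matched for 17325 of 18468 genes.

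Named genes are all called ugt genes, the 6 most abundant and the 4 most changed uncalled ones, and those within 20 kb of a called one. Called genes of the other lists may be named. Members and lists were chosen with earlier results of these data known. Of the alternatives planned, those that need protein or promoter sequences were not run.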

Additional observations from a re-analysis of the deposited data

How the results depend on the processing

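The counts of 6 higher and 9 lower ugt genes kept within 1.5-fold when log2 values were recentred by 0.06 (6 and 10), when a trend with exon length was removed (6 and 10), with features under a mean of 10 left out (6 and 11), at an adjusted p of 0.01 (6 and 6) and with a 2-fold minimum (4 and 6). With a t distribution of 2 degrees of freedom they were 0 and 0, as its heavy tails leave no feature past the threshold. The limma voom fit on recovered reads, chosen after seeing the data, gave 8 and 17, against 18.5% and 18.7% of its 12021 features. With a 2-fold minimum, 544 of all 18638 features were higher and 632 lower. For the other settings no share over all features is given, so their counts describe the members only. Leaving out each library in turn gave 5 to 11 higher and 8 to 18 lower, with a median log2 of the family from -0.44 to 0.11; both the highest counts and the lowest median came without mutant library B (11, 18 and -0.44), and without wild-type library B 14 were lower. Of the 15 called genes, 12 were called in every such fit, and ugt-41, ugt-46 and ugt-48 were not without wild-type library A. ugt-20 ran from -0.10 to 0.077 and changed sign without mutant library A (0.0025) and wild-type library A, and ugt-58 ran from -0.18 to 0.13 and changed sign without mutant library A. The cause was not tested. In these fits the lone library is assumed to vary like the others. No paired analysis was possible because the recovered libraries carry no replicate number. Depth limits the 14 members with a mean under 10.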
